A study of Mus musculus with 54 samples.

Results

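The comparison described here sets mouse embryonic stem cells that carry a Suz12 form labelled deltadim (ddim) against cells of the same background that carry wild-type Suz12 (WT), on days 0 and 1. Its 12 libraries, 3 for each line on each day, were chosen by their titles from the 54 libraries of the series. Every line used, controls included, has the genotype SUZ12-/- and carries a PiggyBac transgene, which is SUZ12 in WT, SUZ12-deltadim in ddim and empty in the control line EV. Day 0 cells had no treatment and grew on gelatin in medium with serum, LIF, CHIR99021 and PD0325901. Day 1 cells had spent 1 day with 0.1 µM retinoic acid in medium without LIF, CHIR99021 and PD0325901. The labels give 1 cell line for each transgene and do not say whether it is a clone, and they do not give the residues that deltadim changes. They also do not say whether the 3 libraries of a group came from separate cultures, so every p-value below measures the spread between these libraries, which may be technical.

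Polycomb repressive complex 2 (PRC2) places methyl groups on lysine 27 of histone H3, a mark of silenced developmental genes in stem cells. Catalysis lies in Ezh2 or in the related Ezh1, Eed binds the methyl mark, Suz12 is the scaffold, and Rbbp4 and Rbbp7 are histone-binding subunits. Suz12 holds the core together and binds the accessory subunits, such as Mtf2, Jarid2, Aebp2 and Epop, that sort the complex into subtypes. The series title concerns activation of PRC2 by dimerization on chromatin, and the comparison asks whether the deltadim form changes gene expression before and just after cells leave the stem cell state.

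Messenger RNA was counted by 3′ end sequencing, which samples transcripts next to their poly(A) tail. Read totals were nearly equal, from 6997715 to 7001533 a library. The 12 libraries held between 3801446 and 4419472 counts on genes, and between 19626 and 20437 genes had a count. Levels are CPM, the count of a gene relative to the library's total gene counts in the usual scaling, with totals adjusted by TMM, and are mean ± SD of 3 libraries unless each library is given. The model covered 14442 genes, and a gene was called when its p, adjusted over those genes, was under 0.05. WT day 1 replicate 3 stood apart from its mates. Over genes, the chi-square of its counts divided by the degrees of freedom was 8.56 against replicate 1 and 9.99 against replicate 2, while replicates 1 and 2 differed by 2.11. In that library 13.84% of reads fell outside annotated genes, against 16% and 16.33% in its mates, and 8.52% of gene counts came from ribosomal protein genes, against 7.44% and 7.23%. Smaller gaps were seen in ddim. The same ratio was 4.95 and 3.79 for ddim day 0 replicate 3 against replicates 1 and 2, which differed by 2.05. For ddim day 1 replicate 1 it was 3.65 and 3.2 against replicates 2 and 3, which differed by 1.54. Ribosomal protein genes gave 8.69% of counts in the first of these, against 9.87% and 9.74% in its mates. In the second they gave 8.15%, against 7.23% and 7.36%. Because WT day 1 replicate 3 stood farthest apart, many results of day 1, though not all, are also given without it.

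Suz12 RNA was at a like level in both lines on day 0 (Suz12, ENSMUSG00000017548, chr11:79993106-80034123 on the plus strand, GRCm38). The WT libraries held 430, 448 and 439 CPM and the ddim libraries 474, 479 and 430 CPM. EV held 65.8, 64.6 and 73.8 CPM, so both rescue lines lay above every EV library, and the WT and ddim ranges overlapped. The log2 difference of ddim over WT was 0.07, with a 95% interval from -0.08 to 0.22 (adjusted p 1 in edgeR). Counts near the 3′ end do not tell the transgene from what remains of the endogenous transcript, nor the WT form from deltadim.

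On day 1 Suz12 RNA had fallen in both rescue lines. WT held 99.4, 97.2 and 94.6 CPM, ddim held 113, 115 and 111 CPM, and EV held 52.5, 52.8 and 53.2 CPM. Every ddim library lay above every WT library. The log2 difference was 0.22 with an interval from 0.05 to 0.39, which did not pass the threshold (adjusted p 0.364 in edgeR), and without WT replicate 3 it was 0.20. The fall from day 0 was -2.18 in WT and -2.03 in ddim on the log2 scale.

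The partners of Suz12 were at levels close to WT. On day 0 all 6 core genes had a 95% interval within 1.5-fold of WT, and log2 differences ran from -0.06 to 0.08. Ezh2, the main enzyme, stood at 260 ± 22 CPM in ddim and 245 ± 13.9 CPM in WT on day 0, and at 234 ± 18.8 and 244 ± 11.4 CPM on day 1. Ezh1, the paralog, was far lower in counts, at 16.6 ± 1.72 against 17 ± 1.83 CPM on day 0. On day 1 the 6 core genes again lay within 1.5-fold, and log2 differences ran from -0.21 to 0.22.

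The lowest value on day 1 was that of Eed, at 107, 118 and 109 CPM in ddim and 106, 121 and 158 CPM in WT. The groups overlapped, and WT replicate 3 was the high library. Its log2 difference of -0.21 became -0.03 without that library. Rbbp7 showed the same order, with 574, 522 and 551 CPM in ddim, 567, 570 and 691 CPM in WT, and a difference of -0.15 that became -0.05 without WT replicate 3. Neither passed the threshold with all libraries (adjusted p 0.449 and 0.467 in edgeR).

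Of 10 listed accessory genes 9 were tested, and none was called on either day. Jarid2, which helps recruit PRC2 to its targets, stood at 855 ± 84.5 against 848 ± 54 CPM on day 0 and 321 ± 6.2 against 335 ± 16.3 CPM on day 1. Mtf2, a Polycomb-like subunit that binds CpG-rich DNA, stood at 374 ± 17.1 against 373 ± 7.22 CPM on day 0. Epop, an elongin-binding subunit, stood at 308 ± 0.415 against 314 ± 18.1 CPM, and Aebp2, of the other PRC2 subtype, at 187 ± 12.7 against 199 ± 9.92 CPM. Phf19 was near the detection range in both lines, at 3.05 ± 1.31 against 2.49 ± 0.395 CPM, and its interval from -0.52 to 1.09 leaves a 2-fold rise within the bounds.

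**Figure D1:**
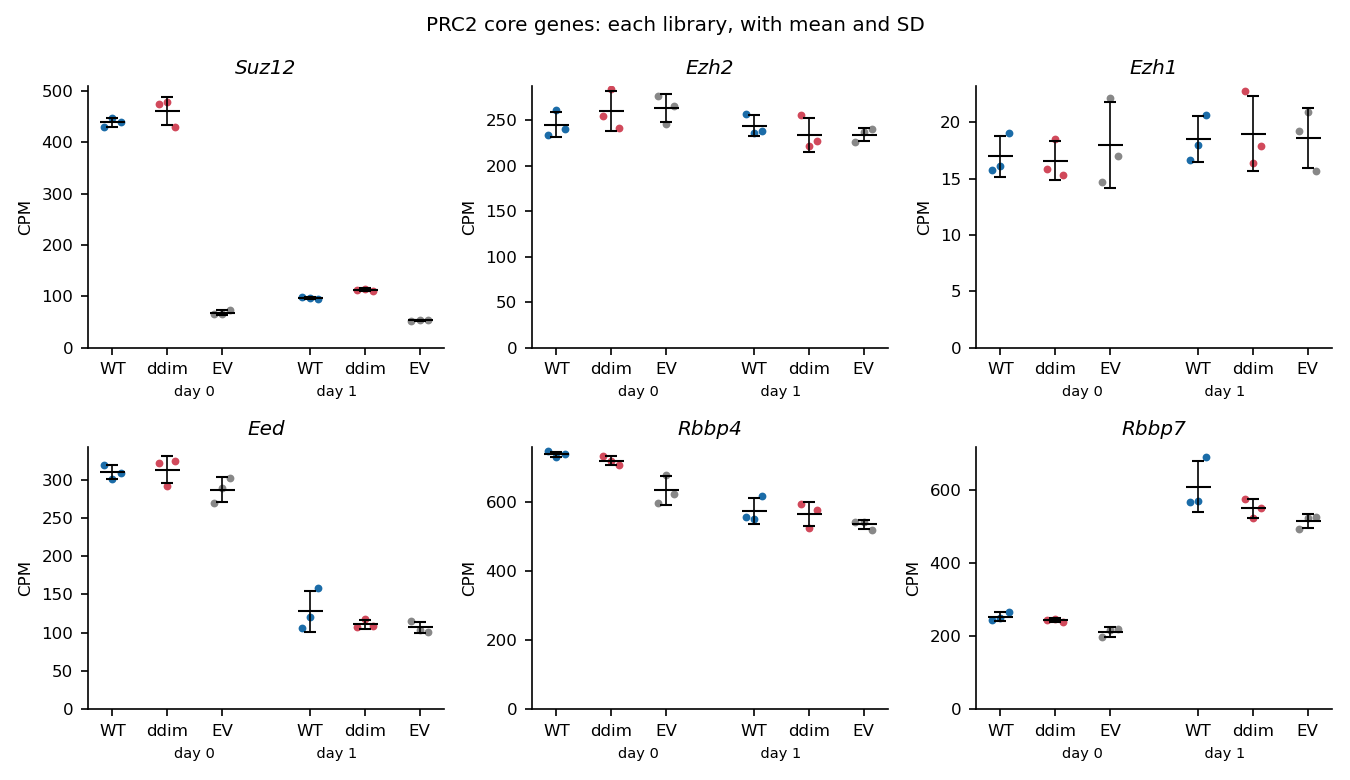
Levels of the 6 PRC2 core genes in CPM (linear axes from 0). Each point is a library, the bar is the mean and the whiskers are the SD of 3 libraries, for WT (blue), ddim (red) and EV (grey) on days 0 and 1. Suz12 lay near 439 CPM in WT and 461 CPM in ddim on day 0, and near 97.1 and 113 CPM on day 1.

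On day 0 no gene was called between ddim and WT. The count was 0 of 14442 genes, or 0%, by edgeR's quasi-likelihood test, and it was also 0 by DESeq2 and by limma-voom. At an unadjusted p under 0.05 there were 532 genes in edgeR, 3.68% of those tested, of which 262 were higher in ddim (1.81%) and 270 lower (1.87%). DESeq2 gave 428 such genes and limma-voom 489. The median log2 difference over all genes was 0.00. TMM scaling places the typical difference near 0, so a shift shared by most genes could not be seen.

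The gene with the smallest p on day 0 was Trappc2l, a subunit of the TRAPP vesicle-tethering complex. It held 54.3, 41.3 and 52.1 CPM in ddim and 34.6, 33.7 and 34.5 CPM in WT, so the groups did not overlap, as in 8.57% of all tested genes. Its log2 difference was 0.52, with an interval from 0.30 to 0.75, and its adjusted p was 0.349 in edgeR. Without ddim replicate 2, the lowest of its group, it was the 1 gene called on day 0. On day 1 the order was turned, with 40.4, 37.4 and 35.6 CPM in ddim and 44.5, 41.6 and 47.7 CPM in WT. Trappc2l also had the smallest p for the difference between the days, -0.76 on the log2 scale, which did not pass (adjusted p 0.142).

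Ptges, which makes prostaglandin E2, was next. It held 25.7, 25.5 and 24.5 CPM in ddim and 34.1, 35.1 and 34.8 CPM in WT, with no overlap and a log2 difference of -0.46. EV held 76.5, 81.5 and 80.3 CPM, so for Ptges ddim lay on the far side of WT from EV. Spats2 showed the same order, with 41.6 ± 1.72 CPM in ddim, 53.4 ± 3.19 CPM in WT and 72.7 ± 5.75 CPM in EV. Neither passed the threshold (adjusted p 1 in edgeR for both), and on day 1 both lay close to WT, with log2 differences of -0.04 and -0.02. The other 7 genes with the smallest p were Nubpl, March9, Fam69a, Rab3gap2, Acot2, Tfb1m and Usp17la, each with an adjusted p of 1.

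How small a difference the day 0 libraries could show depended on the level of the gene. Among genes with a mean of 100 CPM or more, the median half-width of the 95% interval was 0.16 on the log2 scale, and 99.23% of their 1958 genes had an interval within 1.5-fold of WT. Between 20 and 100 CPM the half-width was 0.25, and 93.45% of genes lay within 1.5-fold. Between 5 and 20 CPM it was 0.49, and 84.23% lay within 2-fold. Between 1 and 5 CPM it was 1.01, so that 18.03% lay within 2-fold.

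Over all 14442 genes, 10435 (72.25%) had a day 0 interval within 2-fold and 7673 (53.13%) within 1.5-fold. These are intervals for single genes. For an interval that holds over all genes tested at once, the median half-width at 100 CPM or more was 0.43 on the log2 scale, a 1.35-fold difference. It was 0.67 between 20 and 100 CPM and 1.29 between 5 and 20 CPM. These are medians of a stricter bound than the threshold for a call, so smaller differences could be called, and a gene without a call is not shown to be unchanged.

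**Figure D2:**
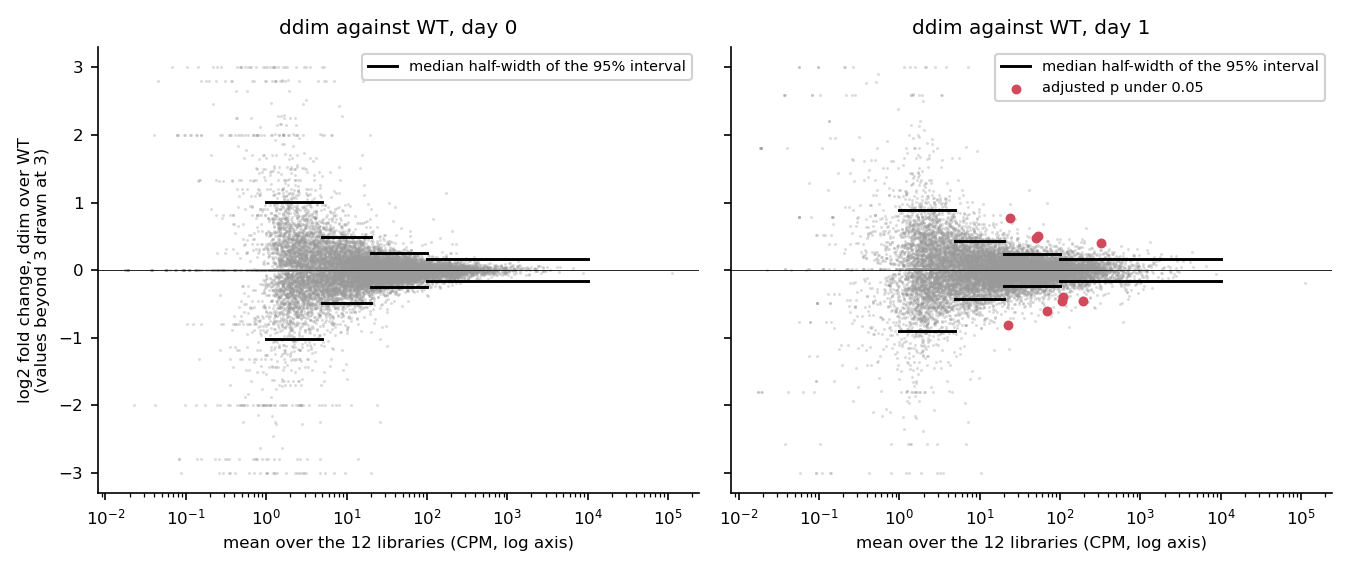
Log2 fold change of ddim over WT for each tested gene (grey points) against its mean level over the 12 libraries in CPM, on a log axis, for day 0 and day 1. Black lines give the median half-width of the 95% interval in 4 ranges of level, from 1.01 at 1 to 5 CPM to 0.16 at 100 CPM or more on day 0, and red points are the 9 genes called on day 1.

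On day 1, 9 genes were called, 0.0623% of those tested. Ccdc8, Nr2f2, Ifitm3 and Irak2 were higher in ddim (4 genes, 0.0277%), and Dcaf1, Etv5, Taf13, H1fx and Gna13 were lower (5 genes, 0.0346%). Their differences were modest, from 0.40 to 0.81 on the log2 scale in size. None was called without WT replicate 3, the library that stood apart, and none without ddim replicate 2 or without ddim replicate 3, as given below. At an unadjusted p under 0.05 there were 1425 genes, 9.87% of those tested, and without WT replicate 3 there were 700, or 4.72%.

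Ccdc8 encodes a partner of the ubiquitin ligase subunit Cul7. It held 33.5, 49.5 and 41.9 CPM in ddim and 30.6, 23.6 and 19.2 CPM in WT. The lowest ddim library was just above the highest WT library, and groups did not overlap in 11.9% of all tested genes on day 1. The log2 difference was 0.77 with an interval from 0.50 to 1.04 (adjusted p 0.00745 in edgeR). Without WT replicate 3 it was 0.62 (adjusted p 0.199). On day 0 Ccdc8 was level, at 14.4 ± 0.43 against 14.5 ± 1.81 CPM, while EV stood lower at 6.44 ± 0.98 CPM.

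Nr2f2, an orphan nuclear receptor that retinoic acid induces, held 105, 105 and 118 CPM in ddim and 90.5, 80.5 and 64.8 CPM in WT. The groups did not overlap and WT replicate 3 was the lowest library. The log2 difference was 0.48 with an interval from 0.30 to 0.66 (adjusted p 0.016 in edgeR). It was 0.36 without WT replicate 3 (adjusted p 0.39). Both lines induced the gene from below 10 CPM on day 0, by 3.61 in WT and 3.79 in ddim on the log2 scale.

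Ifitm3, an interferon-inducible membrane protein that limits virus entry, held 196, 207 and 221 CPM in ddim and 166, 163 and 144 CPM in WT. EV held 202, 188 and 187 CPM, above all WT libraries as well. The log2 difference of ddim over WT was 0.40 (interval 0.24 to 0.56, adjusted p 0.016 in edgeR) and 0.34 without WT replicate 3 (adjusted p 0.269). Irak2, a kinase of Toll-like receptor signalling, held 93.5, 86.7 and 94.2 CPM in ddim and 81.3, 59.7 and 52 CPM in WT. Its groups did not overlap, but the WT libraries spread widely. Its log2 difference was 0.51 (adjusted p 0.0247 in edgeR) and 0.38 without WT replicate 3 (adjusted p 0.605).

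Dcaf1, a substrate receptor of the Cul4 ubiquitin ligase, was the fall with the smallest p. It held 43.1, 43.8 and 38.1 CPM in ddim and 61, 59.9 and 68.8 CPM in WT. EV held 47.2, 42.8 and 44.9 CPM, in the range of ddim and below WT. The log2 difference of ddim over WT was -0.60 with an interval from -0.82 to -0.39 (adjusted p 0.00745 in edgeR), and -0.54 without WT replicate 3 (adjusted p 0.199).

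Etv5, an ETS transcription factor downstream of FGF signalling, held 59.1, 58.9 and 55.5 CPM in ddim and 73.6, 74.5 and 89.8 CPM in WT. No library overlapped, WT replicate 3 was the highest, and EV at 76.1 ± 4.82 CPM was close to WT. Its log2 difference was -0.46 (adjusted p 0.016 in edgeR) and -0.35 without WT replicate 3 (adjusted p 0.514). On day 0, before the fall that both lines share, Etv5 stood at 316 ± 17.7 against 318 ± 13.2 CPM.

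Taf13, a subunit of the general transcription factor TFIID, held 11.8, 9.13 and 11.3 CPM in ddim and 19.2, 19.2 and 18.4 CPM in WT. It is the gene of the 9 in which WT replicate 3 was not the library farthest from ddim. Its log2 difference was -0.81 (interval -1.14 to -0.48, adjusted p 0.0241 in edgeR) and -0.83 without that library, where the adjusted p was 0.199. The size was thus as large without it, and the call was lost.

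H1fx, a linker histone, held 141, 122 and 143 CPM in ddim and 157, 184 and 195 CPM in WT. EV, at 127 ± 10.7 CPM, was below WT as well. The log2 difference of ddim over WT was -0.40 (adjusted p 0.0402 in edgeR) and -0.33 without WT replicate 3 (adjusted p 0.534). On day 0 every ddim library was also below every WT library, at 53.3 ± 4.3 against 62.3 ± 0.896 CPM, a difference of -0.22 that was not called.

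Gna13, the alpha subunit of a heterotrimeric G protein, held 56, 61.2 and 63 CPM in ddim and 77.4, 75.7 and 93.3 CPM in WT. Its log2 difference was -0.45 (adjusted p 0.0476 in edgeR), just inside the threshold, and -0.35 without WT replicate 3 (adjusted p 0.781). On day 0 it was level at 142 ± 12.5 against 144 ± 6.69 CPM.

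In 8 of the 9 genes, WT replicate 3 was the WT library farthest from the ddim mean. What sets that library apart and its part in the 9 calls were not tested beyond leaving it out. Leaving out WT replicate 1 gave 157 calls and leaving out WT replicate 2 gave 61. Leaving out ddim replicate 1 gave 9 calls, 6 of them among the 9 named. DESeq2 called 14 genes, which included the 9. A model on the 12 libraries alone called 1, Dcaf1, and a model on the 6 day 1 libraries called 0 with 830 genes at an unadjusted p under 0.05.

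Day 4 libraries share no sample with days 0 and 1, but they come from the same lines and enter the same model. There, 8 of the 9 genes differed in the same direction, with Taf13 the exception at 0.02. On day 0 it was 7 of the 9. The share of all genes that keep their direction between days was not computed, so these counts have no background. On day 4, 21 genes (0.145% of those tested) were called in all. H1fx was among these 21, at -0.52 on the log2 scale (adjusted p 0.00479 in edgeR). The other 8 were not called on day 4.

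**Figure D3:**
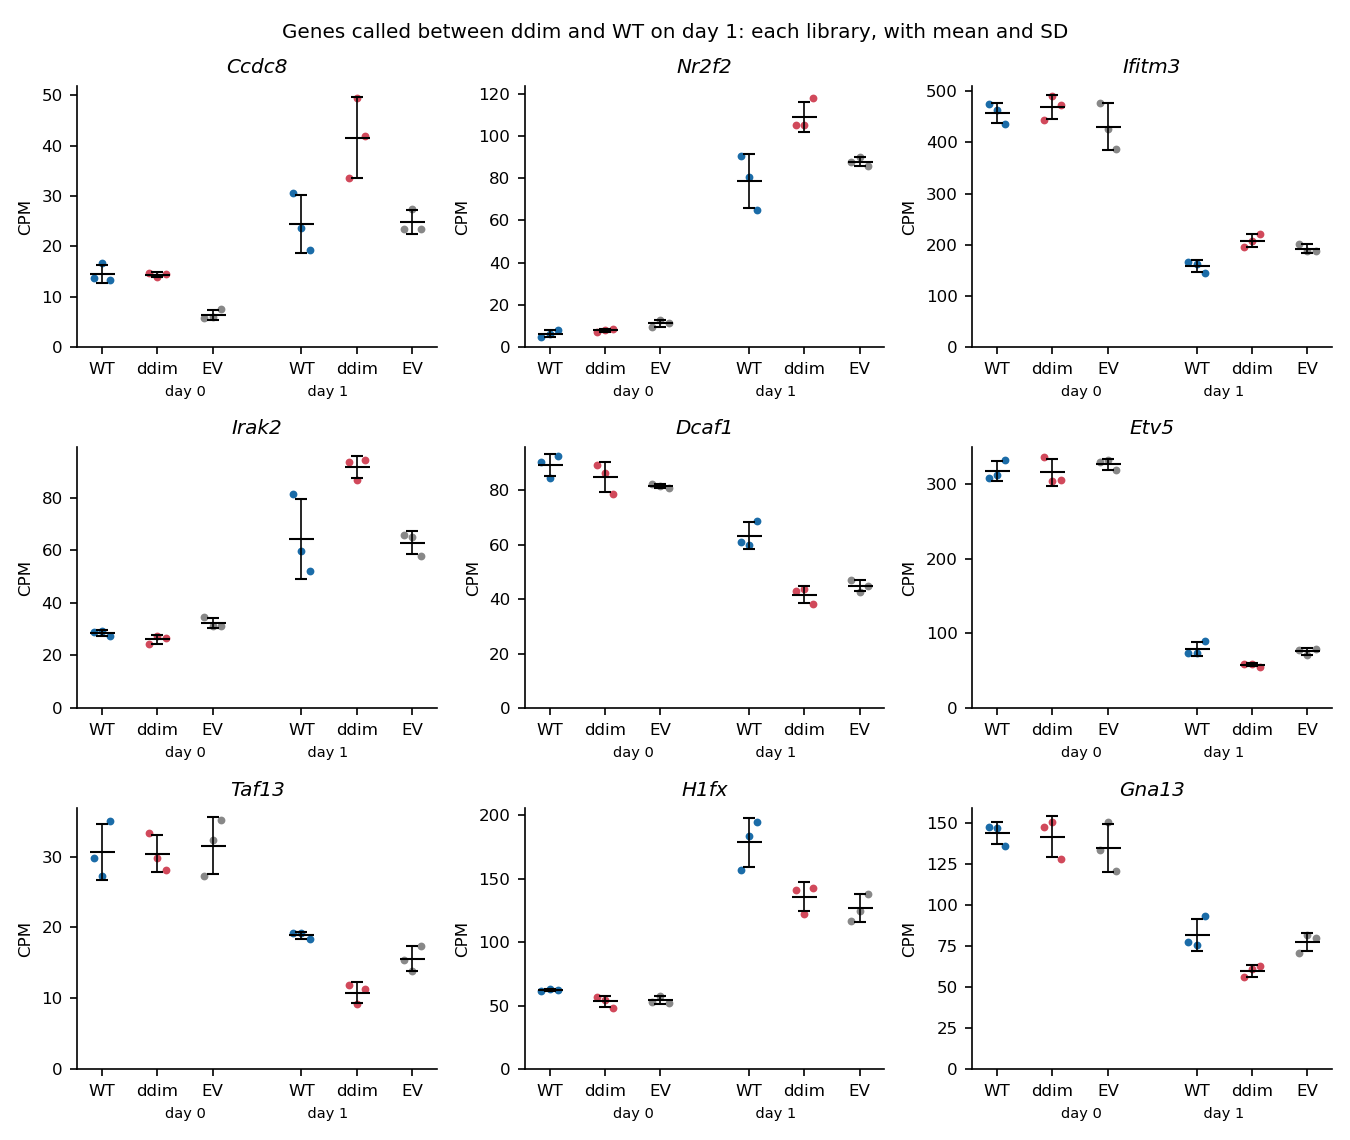
Levels of the 9 genes called between ddim and WT on day 1, in CPM on linear axes from 0. Each point is a library, the bar is the mean and the whiskers are the SD of 3 libraries for WT (blue), ddim (red) and EV (grey); the day 1 ranges of WT and ddim do not overlap in any of the 9, as for Dcaf1 at 63.3 ± 4.87 against 41.6 ± 3.13 CPM.

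PRC2 in mammals is found at CpG-rich promoters, so the promoters of genes called on day 1 are shown for their CpG content. Windows are the 200 bases before the more upstream of the RefSeq and GENCODE M21 starts (GRCm38). They were available for 7528 of the tested genes and for 6 of the 9 called genes. The other 6914 tested genes had no window. This was so where the RefSeq set used held no matching entry, or where its sequence did not reach far enough upstream of the GENCODE start. The genes with a window need not represent all tested genes. The 2 rises and 2 falls with the smallest p whose window holds no annotated exon are printed 5′ to 3′ on the gene's strand. Capitals mark each CpG, searched as the letters CG, which read the same on both strands.
Ifitm3, chr7:141010771-141010970, minus strand: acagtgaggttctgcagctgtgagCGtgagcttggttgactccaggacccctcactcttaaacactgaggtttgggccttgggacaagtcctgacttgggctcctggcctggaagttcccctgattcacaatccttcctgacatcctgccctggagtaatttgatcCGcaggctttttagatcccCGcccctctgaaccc
Irak2, chr6:113638267-113638466, plus strand: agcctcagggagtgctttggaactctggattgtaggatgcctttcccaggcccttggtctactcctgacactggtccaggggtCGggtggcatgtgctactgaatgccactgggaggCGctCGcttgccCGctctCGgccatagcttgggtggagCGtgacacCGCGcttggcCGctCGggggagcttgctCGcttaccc
Dcaf1, chr9:106821674-106821873, plus strand: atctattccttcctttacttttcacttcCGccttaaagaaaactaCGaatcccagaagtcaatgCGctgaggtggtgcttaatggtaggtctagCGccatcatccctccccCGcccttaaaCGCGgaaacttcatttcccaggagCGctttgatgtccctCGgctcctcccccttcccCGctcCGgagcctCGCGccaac
Taf13, chr3:108571498-108571697, plus strand: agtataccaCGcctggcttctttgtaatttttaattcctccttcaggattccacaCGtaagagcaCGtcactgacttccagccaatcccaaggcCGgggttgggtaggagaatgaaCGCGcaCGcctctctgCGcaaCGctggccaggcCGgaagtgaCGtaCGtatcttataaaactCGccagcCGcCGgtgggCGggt

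The Ifitm3 window held 3 CpG and that of Irak2 held 11. The falls had 13 in Dcaf1 and 16 in Taf13. Among called genes not printed, the window of Nr2f2, which holds an annotated exon, had 1 CpG and that of Gna13 had 28. Which start each gene uses in these cells was not tested, so a window need not lie at the promoter in use. Over 7528 windows of tested genes the median was 13, the quartiles were 8 and 19, and 98.6% held at least 1. The printed windows therefore ran from CpG-poor to slightly above the median, and the sequences carry no test.

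Genes just outside the threshold on day 1 included a pluripotency gene and an imprinted RNA. Dppa5a, a marker of naive stem cells, held 350, 228 and 250 CPM in ddim and 346, 364 and 696 CPM in WT. WT replicate 3 alone was high, and the groups overlapped. Its log2 difference of -0.77 (adjusted p 0.0548 in edgeR) became -0.36 without that library. Nova1, an RNA-binding protein, differed by 0.70 (adjusted p 0.0844), and Cdkn1a, the cell cycle inhibitor p21, by 0.38 (adjusted p 0.088). Without WT replicate 3 they differed by 0.54 and 0.27.

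Meg3 is the maternally expressed long noncoding RNA of the Dlk1-Meg3 imprinted cluster. On day 1 it held 284, 319 and 312 CPM in ddim and 266, 231 and 185 CPM in WT, with no overlap, a log2 difference of 0.42 and an adjusted p of 0.0714 in edgeR. Without WT replicate 3 the difference was 0.29. On day 0 it held 120, 144 and 159 CPM in ddim and 121, 126 and 107 CPM in WT, which overlapped, with a difference of 0.26 (adjusted p 1). On day 4 the difference was 0.57 and passed the threshold (adjusted p 0.00165 in edgeR). In EV, Meg3 was at 9.73 ± 1.99 CPM on day 0 and 33.1 ± 3.31 CPM on day 1.

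The bounds of day 1 come from the same model as those of day 0, in which all libraries share a variance for each gene. Their closeness to the day 0 bounds therefore does not show that libraries spread equally on both days. Where replicates spread more, as in WT on day 1, such bounds may be too narrow. On day 1, 11010 of 14442 genes (76.24%) had an interval within 2-fold and 7961 (55.12%) within 1.5-fold. Without WT replicate 3, 10609 of 14816 tested genes had an interval within 2-fold. With all libraries, the median half-width was 0.16 at 100 CPM or more, 0.24 between 20 and 100 CPM, 0.43 between 5 and 20 CPM and 0.89 between 1 and 5 CPM. Among the 10468 genes with a mean of at least 5 CPM, 187 (1.79%) differed by over 0.58 on the log2 scale, or 1.5-fold, on day 1 and 225 (2.15%) on day 0. For EV over WT the same counts were 590 (5.64%) and 1077 (10.3%).

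The same model called many genes where the added Suz12 was missing altogether. EV differed from WT in 1559 genes (10.8%) on day 0 and in 1168 (8.09%) on day 1. The EV and ddim comparisons share their WT libraries, so the values are set side by side and no overlap is drawn. The genes named next were chosen for the largest differences of EV from WT, which makes their EV values a description.

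Of the genes far lower in EV, some were higher and some lower in ddim than in WT, and none was called between ddim and WT on day 0 or day 1. Hoxd13, a posterior Hox gene, stood at 6.85 ± 2.57 CPM in WT, 5.58 ± 1.72 in ddim and 1.14 ± 0.699 in EV on day 1. Chit1, a chitinase, stood at 6.06 ± 1.85 CPM in WT, 5.59 ± 1.68 in ddim and 0.446 ± 0.307 in EV on day 0. On the days given, both lay slightly below WT in ddim, by less than the spread between libraries. The log2 difference of Hoxd13 on day 1, -0.30, was -0.01 without WT replicate 3, and on day 0 it was 0.20. On day 1 Chit1 was higher in ddim, by 0.39 on the log2 scale without WT replicate 3. It was called there with no filter on low counts (0.555, adjusted p 0.0157 in edgeR). Leaving out WT replicate 2 also gave a call for Chit1 on day 1 (0.746, adjusted p 0.0261 in edgeR). Mirg, a noncoding RNA of the Meg3 cluster, stood at 12.5 ± 0.792 CPM in WT, 17.1 ± 5.14 in ddim and 0.625 ± 0.408 in EV on day 0. Rian, of the same cluster, stood at 27.5 ± 3.51 CPM in WT, 36.3 ± 3.04 in ddim and 4.78 ± 1.78 in EV on day 1, where WT and ddim did not overlap and the difference was not called (adjusted p 0.333 in edgeR). Mest, an imprinted hydrolase gene, stood at 62 ± 5.44 CPM in WT, 63.7 ± 2.15 in ddim and 9.5 ± 1.68 in EV on day 1.

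Among the genes far higher in EV, some lay on the other side of WT in ddim. Slc13a5, a citrate transporter, was at 64.2 ± 8.59 CPM in EV, 11.9 ± 0.918 in WT and 7.16 ± 0.568 in ddim on day 0. Its log2 difference of ddim over WT, -0.73 with an interval from -1.22 to -0.26, pointed away from EV and was not called (adjusted p 1 in edgeR). Nanog, a core factor of naive pluripotency, was at 32.8 ± 2.3 CPM in EV on day 1, against 8.78 ± 2.31 in WT and 6.25 ± 0.545 in ddim. Its log2 difference of ddim over WT was -0.48, with an interval from -1.04 to 0.08. Without WT replicate 3 it was -0.69, with an interval from -1.27 to -0.12. Neither passed the threshold (adjusted p 0.576 and 0.985 in edgeR). Hand1, a mesoderm and trophoblast factor, differed in the direction of EV on day 0, with 5.98, 8.05 and 11.7 CPM in ddim, 5.91, 5.09 and 4.78 CPM in WT and 17.3, 19.2 and 43.8 CPM in EV. The log2 difference of ddim over WT was 0.69 with an interval from 0.02 to 1.38. The ranges of ddim and WT just failed to touch, and the difference was not called (adjusted p 1 in edgeR).

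Gene groups were described by 22 lists. On day 0 no list had a called member, against 0% of all genes. On day 1, 3 lists had 1 called member each, which were Nr2f2 among 31 tested retinoic acid response genes, Etv5 among 20 formative and primed pluripotency genes, and Ifitm3 among 15 interferon-stimulated genes, beside 0.0623% of all genes. None of these was called without WT replicate 3.

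Bivalent developmental transcription factors and Hox genes are kinds of genes that PRC2 is known to hold silent. No tested member of these lists was called between ddim and WT on either day. Nr2f2, called on day 1, was counted among the retinoic acid response genes instead. Of 99 listed bivalent developmental transcription factors 73 were tested, and their median log2 difference of ddim over WT was 0.01 on day 0 and 0.02 on day 1. The median of all genes was 0.00 on both days, and for EV over WT the list's medians were -1.32 and -0.16. Many of these genes are low, so 25 of the 73 had an interval within 2-fold on day 0 and 49 on day 1. The 32 tested Hox genes had medians of -0.11 and 0.12 in ddim and -0.88 and -0.23 in EV. The day 1 medians of ddim over WT without WT replicate 3 were 0.05 for the bivalent list, with 74 genes tested, and 0.07 for the Hox list, with 33 tested.

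The most abundant Hox gene was Hoxb1, a direct target of retinoic acid receptors. On day 0 it was at most 0.835 CPM in any library of WT or ddim. On day 1 it held 346, 358 and 372 CPM in ddim and 349, 347 and 321 CPM in WT, which overlapped, and the log2 difference was 0.08 with an interval from -0.06 to 0.23. Hoxa5 stood at 153 ± 5.08 against 144 ± 7.4 CPM. Hoxc9 stood at 114 ± 3.22 against 96.1 ± 19.3 CPM, and its interval ran from 0.04 to 0.45 around a difference that was 0.11 without WT replicate 3. Both were higher in ddim on day 4, by 0.57 and 0.48 (adjusted p 0.000117 and 0.0208 in edgeR).

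No naive or general pluripotency gene was called between ddim and WT on either day. The 27 naive genes had a median of -0.07 on day 0, when 26 of them had an interval within 2-fold. On day 1 the median was -0.09, the lower quartile -0.42 and the range from -2.58 to 0.99, and 15 lay within 2-fold. At an unadjusted p under 0.05, 3 were lower in ddim and 0 higher on day 1, beside 5.05% lower and 4.82% higher of all genes, and without WT replicate 3 it was again 3 and 0. All 27 had fallen from day 0 in both lines. In bulk libraries fewer cells that express a gene and less RNA per cell cannot be told apart. Klf5, a naive factor that stayed well expressed, stood at 798 ± 43.8 against 815 ± 13.2 CPM on day 0 and 269 ± 7.51 against 279 ± 11.1 CPM on day 1. The 15 general pluripotency genes had medians of 0.05 and -0.05, and for EV on day 1 the median was 0.35.

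Genes of the 2-cell-like state, a rare state in these cultures, had a median of 0.16 in ddim over WT on both days for 12 tested of 28 listed. Of these 12, 1 had an interval of ddim over WT within 2-fold on day 0 and 9 on day 1. In EV over WT the medians were -3.30 and -1.56. Many members had no count in EV on day 0, so their intervals have no limit and the size of -3.30 is not bounded. Usp17lc, a ubiquitin protease gene of this state, held 19.4, 19.4 and 20.6 CPM in ddim and 11.6, 15 and 11.8 CPM in WT on day 1. All ddim libraries were above all WT libraries, the log2 difference was 0.63 with an interval from 0.13 to 1.13, and the adjusted p was 0.368 in edgeR. Usp17la held 17.6, 17.1 and 17 CPM against 10.7, 13.4 and 13.1 CPM, a difference of 0.47 with an adjusted p of 0.494. These genes are near-identical copies. Reads not uniquely aligned were counted apart from genes, so reads that fit several copies may be missing from these levels. Without WT replicate 3 the list's median was 0.30 over 13 tested genes, and no member was called.

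The 34 tested imprinted genes had medians of 0.06 and 0.09 in ddim over WT and of -0.43 and -0.41 in EV over WT. H19, a maternally expressed noncoding RNA that rises steeply on day 1, held 2690, 3040 and 2810 CPM in ddim and 2740, 2740 and 2130 CPM in WT. WT replicate 3 was the low library, and the log2 difference of 0.17 became 0.06 without it. Peg3, a paternally expressed zinc finger gene, stood at 49.2 ± 3.32 against 46.6 ± 2.11 CPM on day 0, and on day 1 its difference was 0.06.

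Over the 22 lists the day 1 medians ran from -0.12, in formative and primed pluripotency genes, to 0.16, in 2-cell-like genes. With WT replicate 3 left out they ran from -0.11, in extraembryonic endoderm genes, to 0.30, in 2-cell-like genes, and the formative median was -0.07.

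At an unadjusted p under 0.05 on day 1, 4.82% of all genes were higher in ddim and 5.05% lower, and several lists leaned one way. Markers of fibroblasts and feeders, cells that a stem cell culture could hold, had 4 higher and 0 lower of 18 tested, and 3 and 0 without WT replicate 3. Their medians were 0.01 on day 0 and 0.11 on day 1, which was 0.16 without that library. Trophectoderm genes had 5 higher and 0 lower of 19, and 3 and 0 without it. Cell cycle inhibitors and p53 targets had 6 higher and 0 lower of 24, and 1 and 0 without it. Extraembryonic endoderm genes had 2 higher and 5 lower of 32, and 1 and 5 without it. Housekeeping genes, the control list, had 2 higher and 6 lower of 18, and 0 and 2 without it. No member of these 5 lists was called on day 0 or day 1, and the part of other cells in any of these values was not tested. Retinoic acid response genes, with the called Nr2f2 among them, had 4 higher and 0 lower of 31, and 5 and 0 without WT replicate 3. Hox genes had 5 higher and 1 lower of 32, and 3 and 0 of 33 without it.

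Median differences by chromosome over genes of at least 5 CPM ran from -0.02 to 0.02 on day 0 and from -0.04 to 0.03 on day 1.

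**Figure D4:**
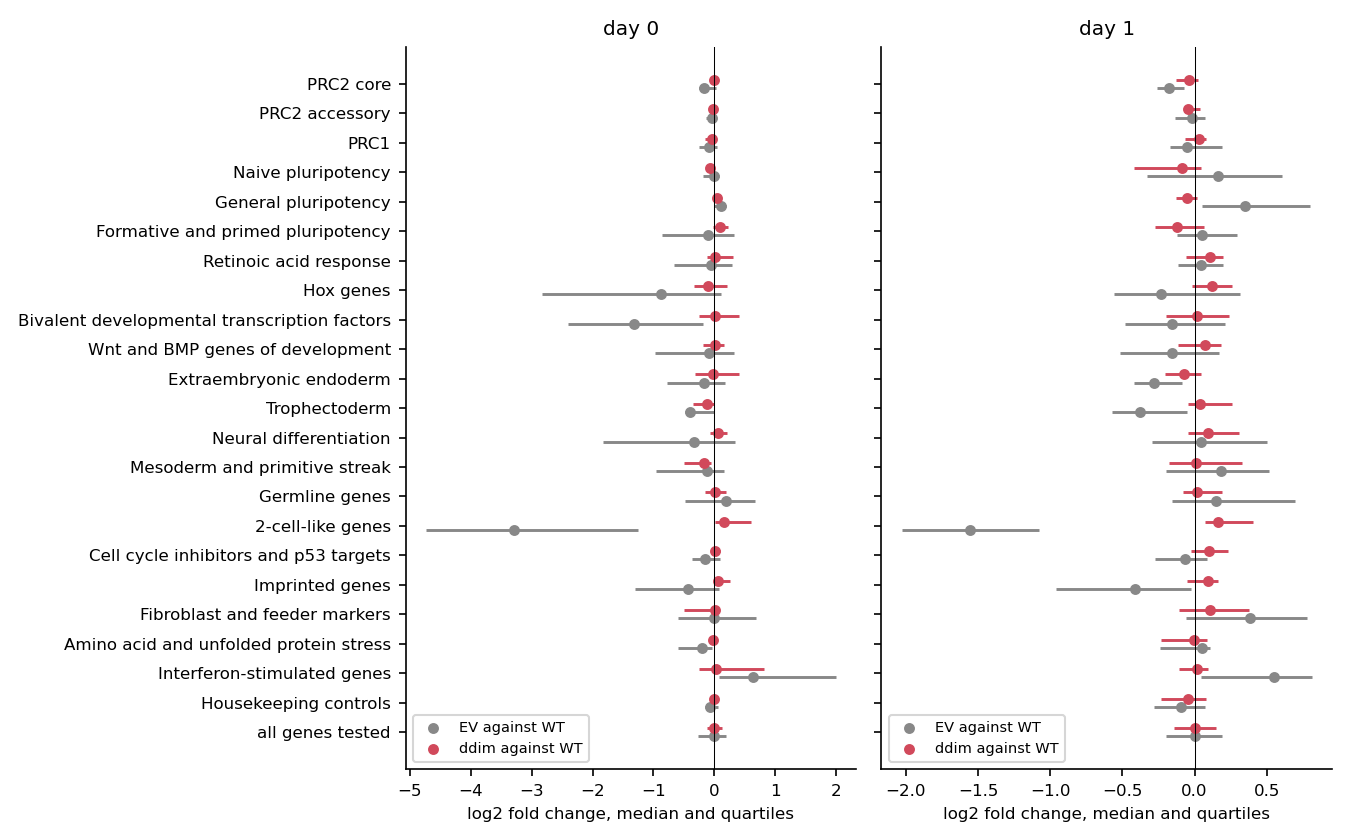
Median and quartiles of the log2 fold change of the tested members of 22 gene lists and of all genes, for ddim over WT (red) and EV over WT (grey) on days 0 and 1; the 2 panels have different horizontal scales. Both comparisons share the WT libraries. The ddim medians lie between -0.17 and 0.16, while the 2-cell-like list lies at -3.30 in EV on day 0. The size of that value is not bounded, since many members had no count in EV.

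The change from day 0 to day 1 was of like size over genes in both lines. Its median size on the log2 scale was 0.49 in WT and 0.50 in ddim at a mean of at least 5 CPM. Day 1 cells had gained retinoic acid and lost LIF, CHIR99021 and PD0325901, and the part of each in this change cannot be told apart. Day 1 differed from day 0 in 8962 genes in WT (62.1%) and in 9033 in ddim (62.5%). These comparisons share no library. Of the calls, 7727 were in both with the same direction, which is 86.22% of the WT calls and 85.54% of the ddim calls. Across the 10468 genes with a mean of at least 5 CPM, Pearson's r of the log2 responses was 0.97, as a description in which genes are not independent replicates.

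Strong responses of the genes named next had the same direction in both lines. Hoxb1 rose by 10.15 in WT and 9.09 in ddim on the log2 scale, from day 0 levels near 0. The interval of its ddim response minus its WT response ran from -3.16 to 0.86. Stra8, a meiosis gene that retinoic acid induces, stood at 675 ± 39.6 CPM in ddim and 626 ± 60.3 CPM in WT on day 1. On day 0 it had stood at 1.72 ± 0.685 and 1.87 ± 0.718 CPM. Nanog fell by 6.16 on the log2 scale in WT and by 6.6 in ddim. Of 31 retinoic acid response genes, 27 rose in WT, where 32.9% of all genes did, and 28 in ddim, where 32.6% did. All 27 naive genes fell in both lines, beside 29.2% of all genes in WT and 29.9% in ddim.

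The difference between the ddim effects on day 1 and day 0 was called for 0 of 14442 genes (0%) by edgeR, by DESeq2 and by limma-voom. At an unadjusted p under 0.05 there were 812 genes (5.62%) in edgeR, 616 in DESeq2 and 803 in limma-voom. Among the 2496 genes that responded over 2-fold in WT at a mean of at least 5 CPM, 1551 had an interval of this difference within 2-fold and 692 (27.72%) within 1.5-fold. The 9 genes called on day 1 are thus not shown to differ in ddim on day 1 more than on day 0. The smallest adjusted p among them for that difference was 0.696, for Etv5, at -0.45.

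**Figure D5:**
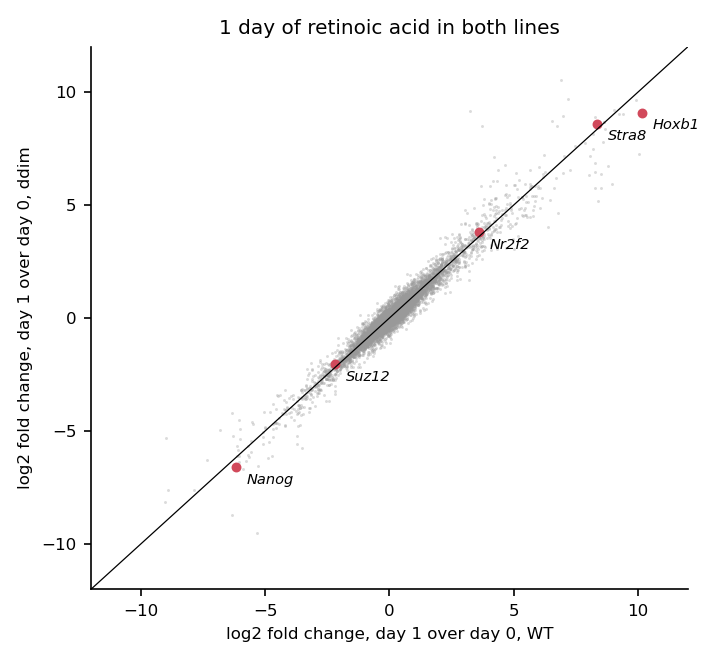
Log2 fold change of day 1 over day 0 in ddim against the same in WT, for genes with a mean of at least 5 CPM (grey points), with the line of equal response and 5 named genes in red. Points follow the line, with r of 0.97 over 10468 genes; Hoxb1 lies at 10.15 in WT and 9.09 in ddim, where its day 0 level was near 0.

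Gene lists that the authors deposited for the Ezh2 series offered another view of the same genes. The authors' deposited table named WTvsKO, up, day 0 held 1004 symbols, of which 889 were tested here, and the table does not state which group is higher. On day 0 the median difference of ddim over WT in these genes was 0.00 and none was called, and on day 1 the median was -0.03 and 1 was called, beside 0.0623% of all genes. The median was 0.01 and none was called without WT replicate 3. In the authors' deposited table named WTvsamKR, up, day 0, 231 of 242 symbols were tested. On day 1 their median was -0.09, and at an unadjusted p under 0.05 37 were lower in ddim and 9 higher, beside 5.05% lower and 4.82% higher of all genes. Without WT replicate 3 the median was -0.01, and 7 were lower and 3 higher.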

How the data were processed

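Whole-gene read counts of 3′ end libraries (Lexogen QuantSeq FWD kit, per the labels' protocols) were used as the authors deposited them, with summary lines that name no gene removed. The build was mm10, per the submitters' processing notes. The aligner, annotation and strand setting are not given in the sources used here. Reads of overlapping or antisense genes may therefore have been set aside as ambiguous or counted for the wrong gene. Of 55487 gene IDs, 55141 were matched to symbols with GENCODE M21. Reads outside genes made up 13.84% to 19.83% of a library, ambiguous reads 3.50% to 4.05% and reads not unique 18.98% to 22.44%. The authors' deposited gene lists of the Ezh2 series were used by symbol only.

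All 27 Suz12-series libraries were fitted in edgeR 4.0.16 (R 4.3.3) with TMM scaling, filterByExpr, a mean for each group and quasi-likelihood tests, with 18 residual degrees of freedom. P-values were adjusted by Benjamini-Hochberg over 14442 genes, with a threshold of 0.05. Bounds are Wald 95% intervals. Alternatives were DESeq2 1.42.0, limma-voom (limma 3.58.1), other scaling, no filter, fewer libraries in the model and a replicate block. A robust variance prior was added after seeing the data. Scripts were tested on simulated data. Named genes were all called genes, or the 10 smallest p of at least 5 CPM where fewer than 10 were called, PRC2 genes, the 3 most abundant members of each list, and the 6 largest EV changes each way. The members and lists were chosen with earlier results of these data known. A count of 0 over a group allows up to 3 counts, at most 0.269 CPM, and this covers counting error only.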

Additional observations from a re-analysis of the deposited data

How the results depend on the processing

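The count of genes called on day 1, 9, depended on the libraries and the tool. It was 138 with no filter on low counts, 1 with 12 libraries in the model, 0 with only the 6 libraries compared and 14 by DESeq2, and from 0 to 157 when each replicate was left out in turn. The 0 came without WT replicate 3, without ddim replicate 2 and without ddim replicate 3, and the 157 without WT replicate 1. The day 0 count was 2 with no filter and from 0 to 1 with a replicate left out. The count for the difference between days was 16 with no filter and from 0 to 1 with a replicate left out. The cause was not tested. Replicate numbers did not pair the libraries, since same-numbered libraries correlated between -0.279 and 0.119 in their deviations from group means. With the replicate block, 0, 10 and 0 genes were called on day 0, day 1 and for the difference. Genes with an interval within 2-fold ranged from 9812 to 10543 on day 0 and from 10315 to 11141 on day 1. No direction of a called gene was reversed under these alternatives. Depth limits what can be said below 5 CPM, where most intervals reached past 2-fold.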
